A study of Mus musculus with 6 samples.

Results

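The genes of major histocompatibility complex (MHC) class I presentation and of the interferon response, 34 in all, were followed in mouse lung tumours with and without Keap1. They were chosen by name as genes of these functions, and each of the 34 symbols was matched to a row of the read count table, which holds 56980 gene identifiers. The Keap1 knockout group held 3 tumour samples and the control group held 3, all labelled lung, small cell lung cancer, from a mouse model named QKO, collected some 4 months after the tumour-initiating virus. The labels leave unexplained what QKO means, which virus was used and how Keap1 was inactivated, and do not state whether each sample is a different mouse. The p-values therefore cover sample-to-sample spread, which may be technical. KEAP1 directs the oxidative stress factor NRF2 to destruction, and the series asked how its loss alters gene expression in these tumours.

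MHC class I molecules display peptides of a cell's own proteins to CD8 T cells. The peptides are cut by the proteasome, carried into the endoplasmic reticulum by the TAP transporter, trimmed, and loaded onto a heavy chain that is bound to beta-2 microglobulin. Interferons bind receptors on the cell surface and, through Janus kinases, STAT proteins and interferon regulatory factors, switch on both this machinery and a large set of antiviral genes. Small cell lung cancer of the neuroendocrine type is known for low class I levels, which makes these genes of interest in this tumour.

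Total counts ranged from 21801647 to 23759892 in the knockout libraries and from 18731515 to 20065069 in the control libraries. Levels are given as CPM, the read count scaled to a common library size after TMM correction for composition. Keap1 itself stood at 67.5, 93.0 and 79.9 CPM in knockouts 1 to 3, against 78.4, 74.5 and 58.7 CPM in controls 1 to 3, which does not check the labels, since a disrupted gene can still be transcribed. Control 3 stood apart from the other libraries. The summed level of 8 neuroendocrine markers was 54.5 to 214 CPM in knockouts, against 106, 72.9 and 4840 CPM in controls 1, 2 and 3. The granule gene Chga had at most 8 reads in a knockout library, against 156, 10 and 19038 reads in controls 1, 2 and 3. Chga, a marker of the neuroendocrine form of the labelled tumour type, was thus at or near 0 in the knockouts and also low in control 2. The summed level of 6 fibroblast markers was 394 to 1076 CPM in knockouts, against 468, 34245 and 5010 CPM in controls 1, 2 and 3. Values without control 3 are given beside many of the results.

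No class I or interferon gene passed the test between knockout and control. Of 34 genes, all of which passed the filter on low counts, 0 had an adjusted p below 0.05 by the quasi-likelihood test of edgeR, adjusted over 17901 genes by the method of Benjamini and Hochberg, against 4.31% of all genes tested (2.42% higher and 1.89% lower in knockouts). Against so small a background share, a count of 0 among 34 is not a result about these genes. At an unadjusted p below 0.05 there were 4 (Rsad2, higher, and Gbp3, Usp18 and Ifnar1, lower), where 30.7% of all genes tested had such a p. Limma voom called 0 of the 34, against 5.96% of all genes, and DESeq2 called 3, namely Rsad2 higher and Gbp3 and Ifnar1 lower, against 25.9% of all genes. The 34 log2 fold changes of knockout over control ran from -1.09 to 1.16 with a median of 0.31, against a median of -0.08 over all genes tested. The groups did not overlap in 8 of the 34 genes (23.5%), with the knockouts above in 5 and below in 3, against 40.7% of all genes tested (21.5% above and 19.1% below).

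The most frequent pattern among the 34 genes was a low level in control 3. This library held the lowest level of the 6 libraries in 26 of the 34 genes (76.5%), against 31.4% of all genes tested, and in 59 of 89 tested genes of further class I and interferon lists. Its level was under 50% of the mean of controls 1 and 2 in 26 of the 34 genes, against 23.7% of 17869 tested genes for which the ratio could be formed, and the median ratio was 0.352, against 0.946 over those genes. The median ratio of the knockout mean to the mean of controls 1 and 2 was 0.964, against 0.984 over the same 17869 genes. For single genes of the 34 this ratio ran from 0.377 (Gbp3) to 1.89 (Mx1). The 3 knockout libraries varied less than the controls, with a median coefficient of variation of 9.26% over the 34 genes, against 52.7% in the controls. Over all genes the same medians were 15.7% in knockouts and 40.3% in controls. Without control 3 the median log2 fold change of the 34 genes became -0.05, with 15 above 0 and 19 below, so the direction of the median rested on that library. In bulk samples, fewer cells that express these genes and less RNA of them per cell cannot be told apart. By summed level, neuroendocrine markers were highest in control 3 of the 6 libraries, and epithelial, endothelial and neutrophil markers were lowest there. Dendritic cell markers were nearly equal in controls 3 and 2, at 21.6 and 21.4 CPM. B cell markers were nearly equal in controls 3 and 1, at 6.97 and 7.11 CPM. The part of these cells in the pattern was not tested.

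**Figure D1:**
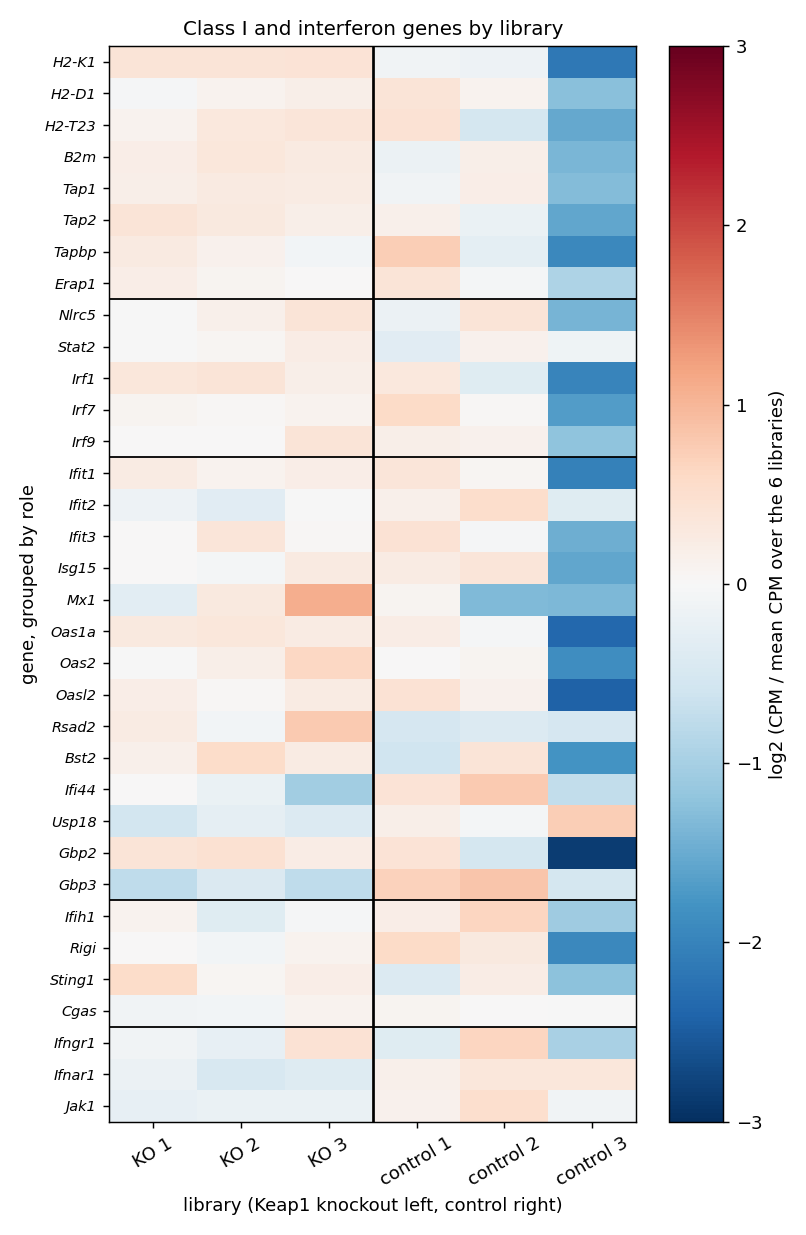
Level of each of the 34 genes (rows, grouped by role) in the 6 libraries (columns, Keap1 knockouts left, controls right), as log2 of CPM over the gene's mean CPM in the 6 libraries. Control 3 is the blue column and holds the lowest level in 26 of the 34 genes.

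**Figure D2:**
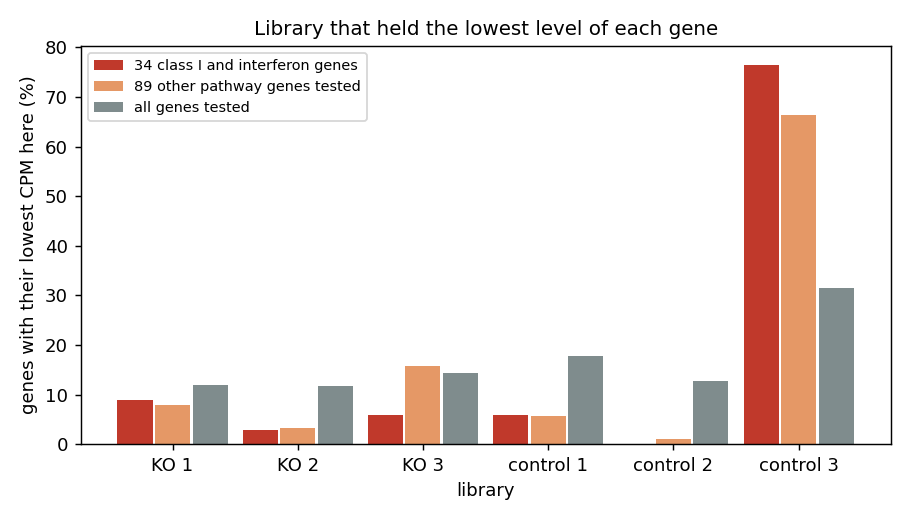
Share of genes (%) whose lowest CPM of the 6 libraries fell in each library, for the 34 class I and interferon genes, 89 other tested genes of the pathway and all 17901 genes tested. Control 3 holds 76.5% of the 34 genes, against 31.4% of all genes.

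No class I chain or loading gene passed the test, although all 8 averaged higher in knockouts than in controls. H2-K1 (ENSMUSG00000061232), a classical heavy chain gene, stood at 3253, 3231 and 3331 CPM in knockouts 1 to 3, against 2323, 2235 and 561 CPM in controls 1 to 3. All knockouts lay above all controls, with a log2 fold change of 0.94 ± 0.53 (SE; edgeR adjusted p = 0.279). Without control 3 it was 0.52 (edgeR adjusted p = 0.0770). The other classical heavy chain gene, H2-D1 (ENSMUSG00000073411), stood at 1894, 2102 and 2176 CPM in knockouts 1 to 3, against 2547, 2102 and 810 CPM in controls 1 to 3. Here the groups overlapped, and the log2 fold change of 0.18 ± 0.43 (SE; adjusted p of 0.805 by edgeR) became -0.17 without control 3. H2-T23, which encodes the non-classical chain Qa-1 recognised by NK cell receptors, averaged 113 ± 9.89 CPM in knockouts and 75.5 ± 48.4 CPM in controls (SD, n = 3 each). The H2 genes are close relatives in sequence, so the split of reads between them is uncertain.

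B2m (ENSMUSG00000060802), the gene of beta-2 microglobulin, stood at 1374, 1508 and 1454 CPM in knockouts 1 to 3, against 1056, 1345 and 465 CPM in controls 1 to 3. The groups did not overlap, although knockout 1 lay close to control 2, with a log2 fold change of 0.60 ± 0.40 (SE; edgeR adjusted p = 0.348). Tap1, a subunit of the peptide transporter, stood at 199, 212 and 210 CPM in knockouts 1 to 3, against 163, 204 and 71.4 CPM in controls 1 to 3, a log2 fold change of 0.50 ± 0.38 (SE; adjusted p of 0.405 by edgeR). The partner subunit gene Tap2 averaged 59.9 ± 4.57 CPM in knockouts and 37.9 ± 19.3 CPM in controls (SD, n = 3 each), with the groups apart. Tapbp, which encodes the loading chaperone tapasin, was highest in control 1, at 303, 276 and 240 CPM in knockouts 1 to 3, against 422, 204 and 65.5 CPM in controls 1 to 3. Erap1, the aminopeptidase gene that trims peptides, averaged 74.5 ± 5.20 CPM in knockouts and 64.4 ± 26.98 CPM in controls (SD, n = 3 each). All 8 genes of this class I group had log2 fold changes above 0, from 0.18 to 0.94, and all 8 had control 3 under 50% of the mean of controls 1 and 2. Without control 3 the median of the 8 log2 fold changes was 0.20, against 0.54 with it, and H2-D1, Tapbp and Erap1 turned negative.

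**Figure D3:**
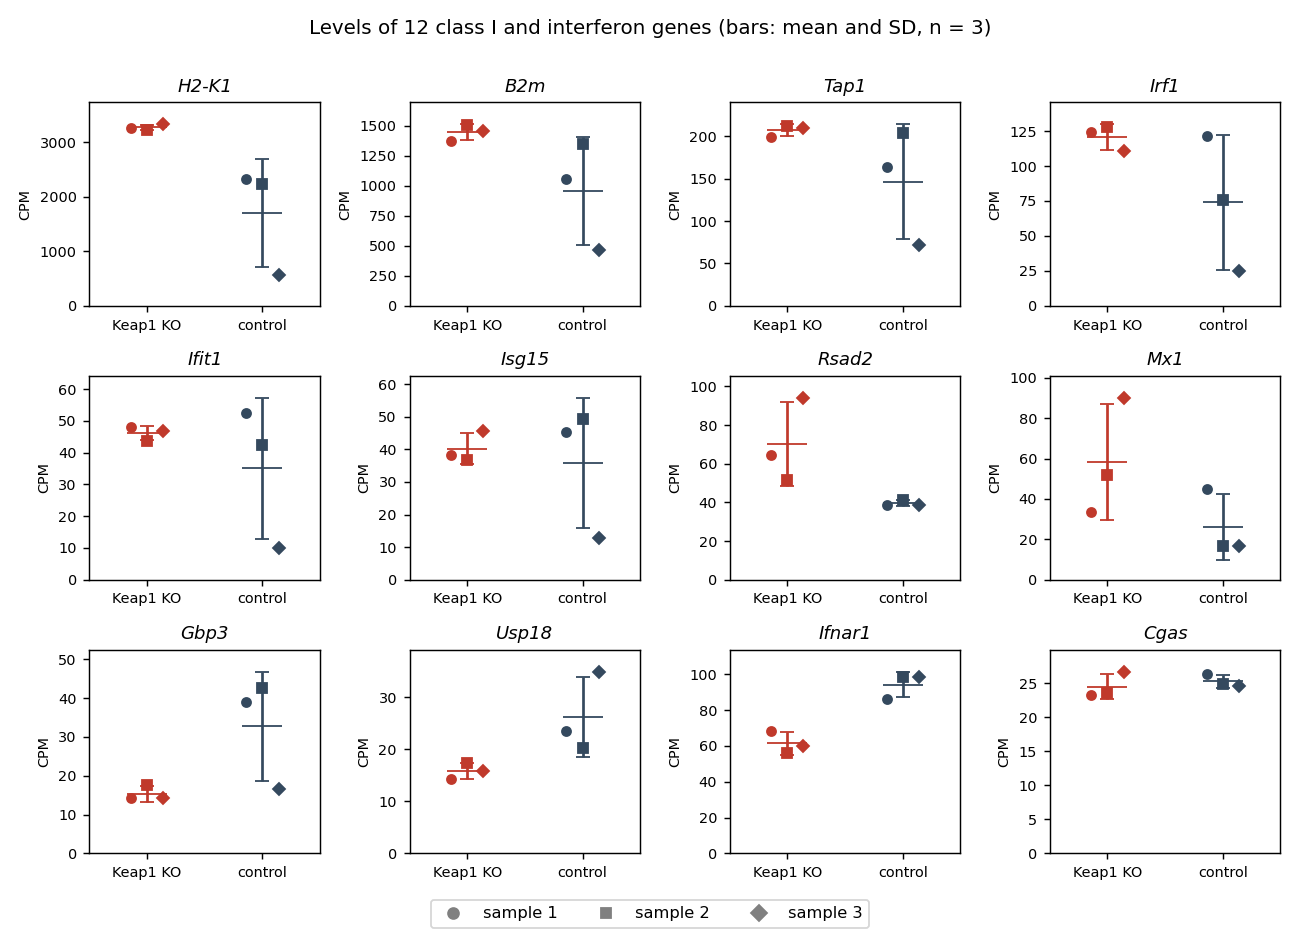
CPM of 12 of the genes (a panel per gene, axes from 0) in Keap1 knockouts (left, red) and controls (right, dark), with circles, squares and diamonds for samples 1, 2 and 3 and bars for the mean and SD (n = 3). In H2-K1, B2m, Tap1, Irf1, Ifit1 and Isg15 the diamond of control 3 lies far below the other libraries, whereas in Rsad2, Usp18, Ifnar1 and Cgas it does not.

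Of the transcription factors, Nlrc5 and Irf1 act on class I genes, and Irf7, Irf9 and Stat2 on the type I interferon response. Nlrc5, the class I transactivator, stood at 64.0, 71.7 and 84.7 CPM in knockouts 1 to 3, against 57.4, 84.8 and 24.4 CPM in controls 1 to 3 (log2 fold change 0.40 ± 0.44, SE, adjusted p of 0.564 by edgeR). Irf1, induced by interferon gamma, stood at 124, 128 and 111 CPM in knockouts 1 to 3, against 121, 76.0 and 24.9 CPM in controls 1 to 3, a log2 fold change of 0.71 ± 0.53 (SE; adjusted p of 0.401 by edgeR). Irf7, which amplifies type I interferon, was highest in control 1, at 113, 108 and 115 CPM in knockouts 1 to 3, against 159, 110 and 33.6 CPM in controls 1 to 3 (log2 fold change 0.16 ± 0.52, SE, adjusted p of 0.861 by edgeR). In all of these the groups overlapped and control 3 was lowest. Without control 3 the log2 fold changes of Nlrc5, Irf1 and Irf7 were 0.05, 0.29 and -0.26, so that of Irf7 turned. Irf9 averaged 62.8 ± 9.88 CPM in knockouts and 50.3 ± 22.3 CPM in controls (SD, n = 3 each). Its log2 fold change of 0.32 became -0.0055 without control 3. Stat2, its partner in the factor ISGF3, was the factor in which control 3 was not the lowest library. It stood at 63.7, 66.3 and 75.0 CPM in knockouts 1 to 3, against 50.7, 70.4 and 59.2 CPM in controls 1 to 3.

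Promoters of genes that were low together in control 3 and of others that were not are shown to set the known interferon response letters beside the values. RefSeq promoter sequences (build GRCm38.p6, not the build of the reads) were found for 28 of the 34 genes and searched on both strands from 250 bases before to 50 bases after the first listed start site. The interferon-stimulated response element (ISRE), bound by ISGF3 and interferon regulatory factors, was searched as GAAA, any 2 bases and GAAA, and the gamma-activated site (GAS), bound by STAT dimers, as TTCNNNGAA. The ISRE letters were in 14 of the 28 promoters, against 3.49% of 27025 promoters of all genes, and the GAS letters in 5 (17.9%), against 8.47%. Matches of the ISRE overlapped each other in Isg15, Oas1a, Bst2 and Gbp3. The ratio of control 3 to the mean of controls 1 and 2 had a median of 0.325 over the 14 genes with the ISRE letters and of 0.389 over the 14 without, with ranges of 0.138 to 0.977 and 0.150 to 1.07. A match is a description of letters, not a shown binding site. The 250 bases before the start are printed 5′ to 3′ on the strand of the gene, with ISRE or GAS matches in capitals. B2m (chr2:122147437-122147686, plus strand) and Isg15 (chr4:156200819-156201068, minus strand) have 1 and 3 ISRE matches, Ifit1 (chr19:34640639-34640888, plus strand) has 2, and Irf1 (chr11:53769764-53770013, plus strand) has a GAS match. Rsad2 (chr12:26456453-26456702, minus strand) has an ISRE match although its level in control 3 was not low, and Cgas (chr9:78443238-78443487, minus strand) has no match of either and was not low there.
B2m: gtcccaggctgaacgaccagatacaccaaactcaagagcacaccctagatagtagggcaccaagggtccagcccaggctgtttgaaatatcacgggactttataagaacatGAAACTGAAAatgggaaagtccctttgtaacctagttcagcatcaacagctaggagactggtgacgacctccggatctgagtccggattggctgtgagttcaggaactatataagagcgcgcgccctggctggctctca
Isg15: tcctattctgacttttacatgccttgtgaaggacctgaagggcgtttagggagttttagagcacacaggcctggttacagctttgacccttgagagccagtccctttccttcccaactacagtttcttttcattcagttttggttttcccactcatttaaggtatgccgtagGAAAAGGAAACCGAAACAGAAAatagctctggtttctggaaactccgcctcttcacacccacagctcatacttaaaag
Ifit1: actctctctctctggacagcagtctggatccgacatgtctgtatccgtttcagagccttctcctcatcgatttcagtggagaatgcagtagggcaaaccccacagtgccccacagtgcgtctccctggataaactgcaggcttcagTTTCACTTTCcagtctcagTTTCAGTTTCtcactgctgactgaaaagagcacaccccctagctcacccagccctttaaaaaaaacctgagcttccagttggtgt
Irf1: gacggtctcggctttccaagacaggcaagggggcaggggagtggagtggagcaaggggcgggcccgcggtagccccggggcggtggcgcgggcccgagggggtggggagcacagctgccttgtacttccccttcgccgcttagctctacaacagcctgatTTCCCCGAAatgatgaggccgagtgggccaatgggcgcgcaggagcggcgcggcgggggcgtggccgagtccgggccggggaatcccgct
Rsad2: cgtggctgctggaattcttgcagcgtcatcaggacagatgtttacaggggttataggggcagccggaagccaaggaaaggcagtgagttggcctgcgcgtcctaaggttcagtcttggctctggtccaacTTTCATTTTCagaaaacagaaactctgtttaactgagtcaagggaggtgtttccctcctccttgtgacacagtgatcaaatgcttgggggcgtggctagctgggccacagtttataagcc
Cgas: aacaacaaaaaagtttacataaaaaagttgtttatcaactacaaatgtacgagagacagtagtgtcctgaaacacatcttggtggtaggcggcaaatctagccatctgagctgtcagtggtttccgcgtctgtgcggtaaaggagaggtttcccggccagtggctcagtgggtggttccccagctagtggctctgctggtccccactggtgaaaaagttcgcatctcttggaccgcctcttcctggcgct

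Among the 14 interferon-induced effectors, 10 averaged higher and 4 lower in knockouts, and none passed the test. Their median log2 fold change was 0.37, and -0.05 without control 3. Ifit1 (ENSMUSG00000034459), which encodes a binder of viral RNA ends, stood at 48.0, 43.8 and 46.9 CPM in knockouts 1 to 3, against 52.5, 42.6 and 10.01 CPM in controls 1 to 3 (log2 fold change 0.40 ± 0.57, SE, adjusted p of 0.658 by edgeR). Isg15 (ENSMUSG00000035692), the gene of a ubiquitin-like modifier, stood at 38.4, 36.8 and 45.7 CPM in knockouts 1 to 3, against 45.4, 49.3 and 12.9 CPM in controls 1 to 3, a log2 fold change of 0.17 ± 0.49 (SE; adjusted p of 0.840 by edgeR). In both the groups overlapped, knockouts lay with controls 1 and 2, and the sign turned without control 3, to -0.04 and -0.23. The oligoadenylate synthetase family, which activates RNase L against viral RNA, averaged higher in knockouts in all 3 members with all libraries, without passing the test. Oas1a averaged 36.5 ± 1.19 CPM in knockouts and 23.3 ± 15.4 CPM in controls, Oas2 47.4 ± 11.04 and 30.3 ± 17.0 CPM, and Oasl2 115 ± 7.98 and 90.9 ± 63.6 CPM in the same order (SD, n = 3 each), with control 3 lowest in each. Without control 3 the log2 fold change of Oasl2 turned to -0.14, against 0.34 with it, and those of Oas1a and Oas2 were 0.19 and 0.24, against 0.65 and 0.65. Bst2, the gene of tetherin, which holds budding viruses at the membrane, averaged 81.3 ± 11.8 CPM in knockouts and 48.8 ± 33.5 CPM in controls (SD, n = 3 each). Its groups overlapped, with control 2 at 84.9 CPM, and its log2 fold change of 0.74 became 0.35 without control 3. Ifit3 averaged 50.1 ± 6.99 CPM in knockouts and 40.6 ± 22.5 CPM in controls, and Ifit2 38.3 ± 4.42 CPM in knockouts and 47.5 ± 14.1 CPM in controls (SD, n = 3 each). The log2 fold change of Ifit3 was 0.30, and -0.07 without control 3. Oas1a and Ifit3 have near copies (Oas1g and Ifit3b) with which reads can be shared.

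A few effectors departed from this. Rsad2 (ENSMUSG00000020641), the gene of the antiviral enzyme viperin, stood at 64.6, 51.6 and 94.1 CPM in knockouts 1 to 3, against 38.7, 41.4 and 38.7 CPM in controls 1 to 3. The groups were apart and the controls nearly equal, with a log2 fold change of 0.82 ± 0.25 (SE; edgeR adjusted p = 0.0982). The same difference had an adjusted p of 0.0377 by DESeq2 and 0.0971 by edgeR without control 3. Mx1, the gene of a dynamin-like GTPase that many laboratory strains carry in a defective form, was the most uneven among knockouts, at 33.8, 51.6 and 90.0 CPM in knockouts 1 to 3, against 45.0, 16.8 and 16.5 CPM in controls 1 to 3. The groups overlapped, and the log2 fold change of 1.16 ± 0.55 (SE) had an adjusted p of 0.209 by edgeR.

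Usp18 (ENSMUSG00000030107), which removes ISG15 from proteins and dampens the type I interferon receptor, was the effector with its highest level in control 3. It stood at 14.3, 17.4 and 15.8 CPM in knockouts 1 to 3, against 23.6, 20.2 and 34.9 CPM in controls 1 to 3. All knockouts lay below all controls, with a log2 fold change of -0.73 ± 0.29 (SE; edgeR adjusted p = 0.150). Ifi44 was also lower on average, at 13.2 ± 4.53 CPM in knockouts and 20.4 ± 9.52 CPM in controls (SD, n = 3 each), with the groups overlapping.

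Gbp2 and Gbp3 encode guanylate-binding proteins, induced mainly by interferon gamma, and neither passed the test. Gbp2 stood at 61.5, 65.2 and 55.2 CPM in knockouts 1 to 3, against 62.6, 32.7 and 6.57 CPM in controls 1 to 3, so that the ratio of control 3 to the mean of controls 1 and 2 was 0.138. Its log2 fold change was 0.84 ± 0.72 (SE; edgeR adjusted p = 0.460), and 0.35 without control 3. Gbp3 (ENSMUSG00000028268) stood at 14.2, 17.7 and 14.2 CPM in knockouts 1 to 3, against 39.0, 42.6 and 16.7 CPM in controls 1 to 3. Knockouts lay far below controls 1 and 2 and reached control 3, at a log2 fold change of -1.09 ± 0.39 (SE; edgeR adjusted p = 0.131). Without control 3 it was -1.40 (edgeR adjusted p = 0.0171), the only call among the 34 genes in that fit, in which 8.8% of 18656 genes were called lower and 8.4% higher. DESeq2 on all libraries gave Gbp3 an adjusted p of 0.0444.

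None of the 4 sensors of foreign nucleic acid passed the test, and their levels overlapped between knockouts and controls. Sting1 (ENSMUSG00000024349), the adaptor that relays the cGAS signal, stood at 37.2, 26.7 and 29.5 CPM in knockouts 1 to 3, against 19.2, 29.8 and 10.95 CPM in controls 1 to 3 (log2 fold change 0.64 ± 0.40, SE, adjusted p of 0.315 by edgeR), with the groups overlapping. Cgas, the sensor of cytosolic DNA itself, was the most even gene of the set across controls, at 23.4, 23.5 and 26.7 CPM in knockouts 1 to 3, against 26.4, 25.0 and 24.6 CPM in controls 1 to 3. The RNA sensor genes Ifih1 and Rigi (listed as Ddx58 in the gene name table) averaged 48.0 ± 7.70 and 62.6 ± 3.93 CPM in knockouts, against 54.3 ± 27.7 and 61.9 ± 40.4 CPM in controls (SD, n = 3 each). Control 3 was lowest in both, and without it their log2 fold changes were -0.53 and -0.43, with adjusted p of 0.133 and 0.0956 by edgeR. For Rigi the ratio of control 3 to the mean of controls 1 and 2 was 0.192.

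Of the receptor chains and their kinase, Ifnar1 and Jak1 averaged lower in knockouts, neither past the test, and the direction of Ifngr1 depended on the libraries used. Ifnar1 (ENSMUSG00000022967), a chain of the type I interferon receptor, stood at 68.6, 56.0 and 60.0 CPM in knockouts 1 to 3, against 86.0, 98.3 and 98.5 CPM in controls 1 to 3. All knockouts lay below all controls, control 3 was not low, and the log2 fold change was -0.62 ± 0.16 (SE), the smallest p of the 34 genes, with an edgeR adjusted p of 0.0767. Its log2 fold change lay between -0.67 and -0.54 in every alternative tried, and its adjusted p was 0.0524 by edgeR without control 3 and 0.00229 by DESeq2. The authors' deposited table gives Ifnar1 a log2 fold change of -0.62 and an adjusted p of 0.0417 by DESeq2. No other of the 34 genes was below 0.05 there, and the share over all genes of that table was not taken. DESeq2 as run here called 25.9% of all genes. Jak1, the kinase shared by both interferon receptors, stood at 108, 110 and 111 CPM in knockouts 1 to 3, against 139, 180 and 118 CPM in controls 1 to 3. The groups were apart, with a log2 fold change of -0.41 ± 0.20 (SE; edgeR adjusted p = 0.220). Ifngr1, a chain of the interferon gamma receptor, stood at 99.6, 90.5 and 143 CPM in knockouts 1 to 3, against 83.4, 168 and 54.7 CPM in controls 1 to 3, a log2 fold change of 0.12 ± 0.44 (SE; adjusted p of 0.870 by edgeR). It turned to -0.18 without control 3 and to -0.08 without knockout 3.

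**Figure D4:**
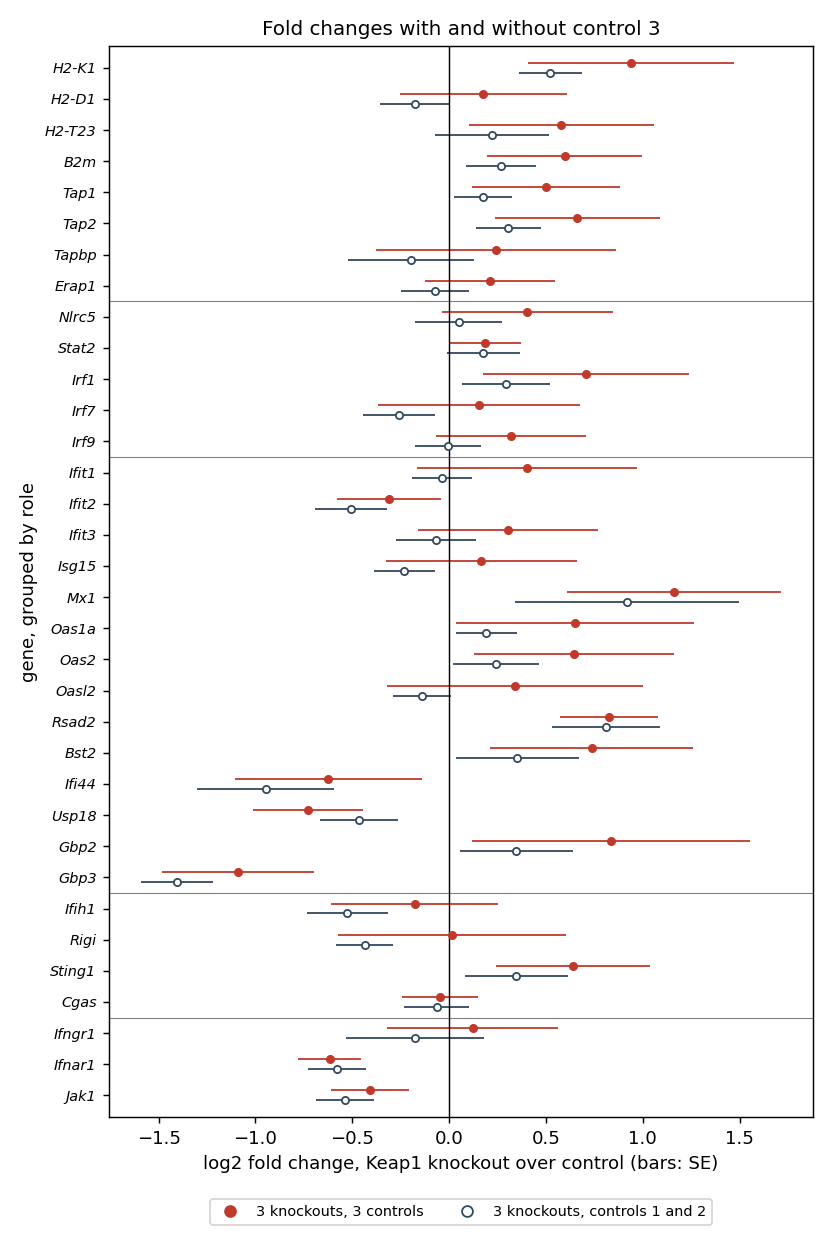
Log2 fold change of Keap1 knockout over control for each of the 34 genes, grouped by role, from edgeR with all 6 libraries (filled red) and without control 3 (open dark), with bars for the SE. Most red points lie right of 0 and move left when control 3 is left out, to a median of -0.05. With all libraries 26 of the 34 genes lie right of 0, and without control 3 15 do. Ifnar1, Jak1, Rsad2 and Gbp3 are among the genes that stay on their side.

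The interferon genes themselves were at the limit of detection. Of 9 interferon genes looked up, 5 (Ifna1, Ifna2, Ifna4, Ifne and Ifnl2) had no read in any library, and none passed the filter on low counts. Ifng, the gene of interferon gamma, had 1 read over the knockouts and 4 over the controls, and Ifnb1 had 0 over the knockouts and 1 over the controls. Ifnk had the most, 8 reads over the knockouts and 16 over the controls. A count of 0 in a library allows up to 3 counts, or 0.132 to 0.140 CPM in knockouts and 0.149 to 0.152 CPM in controls, so lower levels were not detectable at this depth. Such limits cover counting error only.

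Further genes of the pathway, on lists chosen for their function, gave 3 calls. Of 99 such genes 89 were tested, and by edgeR at an adjusted p below 0.05 1 rose and 2 fell, a share near the 4.31% of all genes tested. DESeq2 called 15 of the 89 (16.9%, against 25.9% of all genes) and limma voom 4 (4.49%, against 5.96%). An unadjusted p below 0.05 by edgeR was seen in 26 of the 89, against 30.7% of all genes. Psme1 (ENSMUSG00000022216), which encodes a subunit of the proteasome activator PA28, was the gene that rose. It stood at 380, 358 and 360 CPM in knockouts 1 to 3, against 147, 118 and 71.6 CPM in controls 1 to 3. The groups did not overlap, with a log2 fold change of 1.70 ± 0.29 (SE; edgeR adjusted p = 0.0413, or 0.0125 without control 3). The other PA28 subunit gene and the immunoproteasome subunit genes had the same order without passing. Psme2 averaged 239 ± 14.9 CPM in knockouts and 116 ± 58.1 CPM in controls, Psmb8 94.3 ± 9.16 and 47.9 ± 24.2 CPM, Psmb9 87.9 ± 2.92 and 48.6 ± 21.9 CPM, and Psmb10 92.3 ± 14.8 and 43.3 ± 24.2 CPM in the same order (SD, n = 3 each). In these 5 genes, of 9 on the list of immunoproteasome and loading genes (55.6%), all knockouts lay above all controls, against 21.5% of all genes tested. The endoplasmic reticulum chaperone genes Canx, Calr and Pdia3, which also serve class I folding, had log2 fold changes of 0.03, -0.29 and 0.05. The median over the 9 genes of this list was 0.86, and 0.54 without control 3. Psme2, the Psmb genes and the chaperones were named after their values were seen.

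Of 13 other class I chains edgeR called 0, against 4.31% of all genes. An unadjusted p below 0.05 was seen in 5, all higher, against 30.7% of all genes. Limma voom called 0, against 5.96% of all genes, and DESeq2 called 3 (23.1%, against 25.9% of all genes). Their median log2 fold change was 0.44, and 0.21 without control 3. The 2 with the smallest p were the Qa-2 genes. H2-Q7 stood at 159, 281 and 171 CPM in knockouts 1 to 3, against 80.8, 98.3 and 67.5 CPM in controls 1 to 3, a log2 fold change of 1.31 ± 0.29 (SE; edgeR adjusted p = 0.0590). H2-Q6 stood at 102, 143 and 119 CPM in knockouts 1 to 3, against 45.6, 71.4 and 31.7 CPM in controls 1 to 3, a log2 fold change of 1.29 ± 0.33 (SE; edgeR adjusted p = 0.0745). The groups were apart in both, and these genes are near copies between which reads can be shared. Without control 3, H2-Q2, H2-Q6 and H2-T10 were higher and H2-Q10 was lower at an adjusted p below 0.05 by edgeR, 4 of the 13 (30.8%), against 17.2% of all genes in that fit.

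The 2 genes that fell were Tlr7 and Ifi204. Tlr7 was 1 of 12 other factors and sensing adaptors tested, of which 5 had an unadjusted p below 0.05 by edgeR (2 higher, 3 lower), with a median log2 fold change of 0.21. Ifi204 was 1 of 44 other interferon-induced genes tested, of which 12 had such a p (4 higher, 8 lower), with a median of -0.20, against -0.08 over all genes tested. Of all genes tested, 30.7% had such a p. Tlr7 (ENSMUSG00000044583), a sensor of single-stranded RNA known from macrophages and dendritic cells, stood at 1.68, 3.11 and 3.56 CPM in knockouts 1 to 3, against 11.6, 12.7 and 11.6 CPM in controls 1 to 3. Its log2 fold change was -2.10 ± 0.41 (SE), with an edgeR adjusted p of 0.0486. Ifi204 (ENSMUSG00000073489), a DNA sensor gene of the p200 family known from myeloid cells, stood at 5.69, 2.34 and 1.93 CPM in knockouts 1 to 3, against 42.9, 33.4 and 15.1 CPM in controls 1 to 3, a log2 fold change of -3.20 ± 0.62 (SE; edgeR adjusted p = 0.0493). All knockouts lay below all controls in both. Each of Psme1, Tlr7 and Ifi204 lost its edgeR call when any knockout library was left out and when control 2 was left out, and Tlr7 and Ifi204 also lost it without control 1.

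Macrophage and monocyte markers were also lower on average in knockouts. All 10 had a lower mean in knockouts, and their summed level was 176 to 212 CPM in knockouts, against 364, 845 and 285 CPM in controls 1, 2 and 3. Tlr7 was nearly even across the controls, and Ifi204 was highest in control 1. The part of macrophages in the levels of Tlr7 and Ifi204 was not tested. By edgeR 0 of the 10 macrophage and monocyte markers passed the test, against 4.31% of all genes. An unadjusted p below 0.05 by edgeR was seen in 6 of them, against 30.7% of all genes. The 6 leukocyte and class II markers summed to 182 to 448 CPM in knockouts, against 247 to 776 CPM in controls, with all 6 means lower in knockouts. The 13 T and NK cell markers were sparse in both groups, at 5.85 to 15.6 CPM in knockouts, against 15.4 to 30.8 CPM in controls, and the 5 B cell markers at 8.44 to 13.2 CPM in knockouts, against 6.97 to 12.4 CPM in controls. The 4 neutrophil markers summed to 6.55 to 9.05 CPM in knockouts, against 2.84 to 32.8 CPM in controls, the 6 dendritic cell markers to 4.44 to 8.56 CPM in knockouts, against 6.50 to 21.6 CPM in controls, and the 6 endothelial markers to 133 to 222 CPM in knockouts, against 93.7 to 337 CPM in controls. The 5 epithelial markers summed to 4422 to 5247 CPM in knockouts, against 2485, 3384 and 1165 CPM in controls 1, 2 and 3, so that control 3 was also lowest in epithelial transcripts. The part of these cells in the values of the interferon genes was not tested. Of these lists, no marker was at 0 in all libraries, and the NK cell gene Ncr1 had 0 reads in every knockout library and in control 3.

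Among 11 other receptors, kinases and inhibitors edgeR called 0 and limma voom 0, against 4.31% and 5.96% of all genes. DESeq2 called 1 (9.09%, against 25.9% of all genes). In 2 of the 11 the unadjusted edgeR p was below 0.05, where 30.7% of all genes had one. Ptpn11, the gene of the phosphatase SHP2, stood at 120, 104 and 98.6 CPM in knockouts 1 to 3, against 192, 166 and 176 CPM in controls 1 to 3, a log2 fold change of -0.73 ± 0.16 (SE; edgeR adjusted p = 0.0603). Tyk2, the kinase bound to the type I receptor, stood at 79.1, 87.2 and 112 CPM in knockouts 1 to 3, against 49.99, 53.6 and 19.8 CPM in controls 1 to 3, a log2 fold change of 1.17 ± 0.40 (SE; edgeR adjusted p = 0.120). The groups were apart in both. Without control 3, edgeR called 3 of the 11, a share of 27.3%, against 17.2% of all genes in that fit. These were Tyk2, higher at 0.84 (edgeR adjusted p = 0.0404), Ptpn11, lower at -0.73 (edgeR adjusted p = 0.0339), and Ifngr2, the other chain of the interferon gamma receptor, lower at -1.15 (edgeR adjusted p = 0.0228) and named after its values were seen.

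Leaving out control 3 changed the further genes the most. Of the same 89 genes, 7 were then higher and 16 lower at an adjusted p below 0.05 by edgeR, together 25.8%, against 17.2% of the genes tested in that fit (8.4% higher and 8.8% lower). Among the 16 were the interferon-inducible GTPase genes Gbp5, Gbp7, Gbp9, Tgtp1 and Tgtp2 and the chemokine gene Cxcl9, a T cell attractant induced by interferon gamma. These were named after their values were seen. Over all 14 tested guanylate-binding and immunity-related GTPase genes, members of the set included, the mean of controls 1 and 2 was above the knockout mean in 12. Relative to the knockout mean of each gene, their median log2 level was -0.10, 0.18 and -0.14 in knockouts 1 to 3, against 1.35, 1.17 and -0.27 in controls 1 to 3. Over all 14 tested H2 class I chains the mean of controls 1 and 2 was above the knockout mean in 5 and below it in 9. Their median log2 level was -0.13, 0.11 and 0.05 in knockouts 1 to 3, against -0.39, -0.55 and -1.67 in controls 1 to 3. Controls 1 and 2 thus lay above the knockouts in most GTPase genes and below them in most class I chains. Control 3 was the lowest library by median in both, but by little in the GTPase genes. It lay below every knockout in 12 of the 14 class I chains and in 7 of the 14 GTPase genes. Both groupings were set after the values were seen and were not tested as lists.

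**Figure D5:**
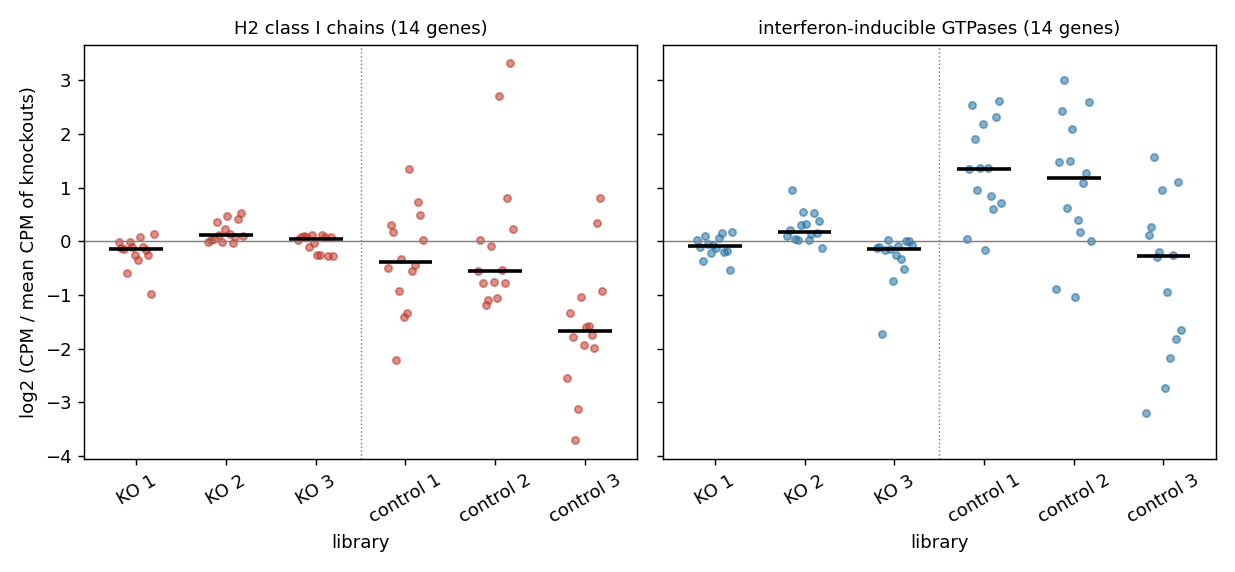
Log2 of CPM over the gene's mean CPM in knockouts, for 14 H2 class I chains (left, red) and 14 interferon-inducible GTPase genes (right, blue) in the 6 libraries, with a point per gene and a black bar for the median. The GTPase medians are 1.35 and 1.17 in controls 1 and 2, against -0.39 and -0.55 for the class I chains. Control 3 has the lowest median in both, at -0.27 for the GTPases and -1.67 for the class I chains.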

How the data were processed

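RNA-seq of mRNA libraries from 3 Keap1 knockout and 3 control mouse lung tumour samples was used. The authors deposited raw read counts per Ensembl gene, aligned with STAR to mm39 and compared with DESeq2, per the submitters' processing notes. The way reads were counted, the annotation and the use of strand were not given in the sources used here. Per the file headers, a DESeq2 table deposited by the authors gives a mean normalized signal, log2 fold changes with their errors, a test score (the Wald statistic), p-values and adjusted p-values. Its fold changes run as knockout over control.

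Of 56980 identifiers, 52073 had a symbol in the name tables. Rigi and Sting1 were matched through the older symbols Ddx58 and Tmem173. Counts as deposited were filtered with edgeR's filterByExpr (minimum count 10), scaled by TMM and tested by the robust quasi-likelihood test (edgeR 4.0.16, R 4.3.3) on the 2 groups with no covariate, with Benjamini-Hochberg adjustment over the 17901 genes tested and a threshold of 0.05. The SE is the absolute log2 fold change divided by the square root of F. CPM values are counts scaled by the TMM-corrected library total. The test was repeated with 2 other scalings (upper-quartile and RLE), with 2 other filters (none, or at least 1 CPM in 3 samples), with limma voom 3.58.1 and DESeq2 1.42.0, with a block for sample number, and with each library left out. No 2 libraries agreed within sampling noise.

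The genes and lists were chosen with earlier results of these data known. All 34 genes are named, with full statistics for 11 anchors of the roles and for the 6 with the smallest p; of each further list, the genes past the threshold are named or, with none, the 2 with the smallest p. Other genes named were chosen after their values were seen.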

Additional observations from a re-analysis of the deposited data

How the results depend on the processing

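Over all genes tested, edgeR called 771 (433 higher and 338 lower in knockouts). No filter gave 465, DESeq2 gave 4642 and the replicate block gave 0, with 4026 genes at an unadjusted p below 0.05; leaving out single libraries gave 0 to 3209. Of the 34 class I and interferon genes 0 were called; DESeq2 called 3, and leaving out single libraries gave 0 to 1, the 1 being Gbp3 without control 3. Of the 89 further pathway genes 3 were called, against 1 with no filter, 15 by DESeq2, 0 with the replicate block and 0 to 23 when single libraries were left out. The median log2 fold change of the 34 genes was 0.31, with a range of -0.051 to 0.61 when single libraries were left out and a value of 0.52 with the replicate block. Rigi, at 0.02, was -0.010 under RLE scaling and -0.010 by DESeq2. When single libraries were left out, the log2 fold change changed sign in 13 genes, in 11 of them without control 3, with ranges of -0.17 to 0.51 for H2-D1, -0.20 to 1.03 for Tapbp, -0.072 to 0.54 for Erap1, -0.26 to 0.66 for Irf7, -0.0055 to 0.55 for Irf9, -0.038 to 0.82 for Ifit1, -0.069 to 0.73 for Ifit3, -0.23 to 0.48 for Isg15, -0.14 to 0.81 for Oasl2, -0.53 to 0.22 for Ifih1, -0.43 to 0.45 for Rigi, -0.090 to 0.015 for Cgas and -0.18 to 0.71 for Ifngr1. The cause of these changes was not tested. Same-numbered knockout and control samples had correlations of their deviations of 0.018, 0.00012 and 0.051, against -0.062 to 0.053 for samples of different number. Correlations this small, from 3 libraries a group, cannot decide whether same-numbered samples were paired. With 3 libraries a group, of which control 3 stands apart, the spread among controls limits what the test can call. Without control 3, edgeR called 1 of the 34 genes, against 17.2% of all genes in that fit.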

Other observations

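Some genes of the further lists stood high in a single control library, and they were chosen after their values were seen. Ifitm1, an interferon-induced membrane protein gene, stood at 10.6, 7.14 and 4.22 CPM in knockouts 1 to 3, against 412, 9.51 and 8.96 CPM in controls 1 to 3. The high level was in control 1, at 8110 reads, against 96 to 227 reads in the other 5 libraries. Cmpk2, a nucleotide kinase gene next to Rsad2, was high in control 3, at 29.7, 25.0 and 32.9 CPM in knockouts 1 to 3, against 18.4, 27.1 and 94.3 CPM in controls 1 to 3. Cd1d1, which encodes the lipid-presenting chain CD1d, was also highest in control 3, at 4.94, 5.72 and 4.70 CPM in knockouts 1 to 3, against 3.25, 13.5 and 37.7 CPM in controls 1 to 3. H2-Q10, the gene of a secreted class I chain, was highest in control 2, at 6.15, 6.41 and 4.84 CPM in knockouts 1 to 3, against 14.8, 37.8 and 1.94 CPM in controls 1 to 3. None of these 4 genes passed the edgeR test on all libraries.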
